A study of Saccharomyces cerevisiae with 8 samples.

Results

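The end points of a time series on yeast colonies were compared: cells in Log phase and colonies harvested on Day 4. The members are 4 of the 8 libraries of the series, chosen by their labels, 2 from Log phase and 2 from Day 4. All 4 came from BY4741, a wild-type laboratory strain of Saccharomyces cerevisiae with the genotype MATa his3Δ1 leu2Δ0 met15Δ0 ura3Δ0. Log phase cells were taken from liquid medium, and Day 4 cells were colonies that had grown from such cells after dilution and plating. Liquid or solid medium, growth form and time on medium therefore differ together and cannot be told apart. A colony holds cells at different positions and ages, and the RNA came from whole pellets, so a lower level per cell and fewer cells with the transcript cannot be told apart either. Whether replicates came from different cultures is not stated, and the spread behind each p-value may be technical. The stated interest of the study is whether gene expression and the choice of poly(A) site are linked. Site choice is not analysed here, and 3 readouts per gene are set side by side instead: expression, poly(A) tail length and the share of reads that carry a tail.

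PAT-seq reads the 3′ ends of polyadenylated RNA together with part of the tail, so a read counts a transcript end and its untemplated A run gives a tail length. In yeast the tail is added when the cleavage and polyadenylation machinery cuts the nascent transcript. Pan2-Pan3 and Ccr4-Not then shorten it, and decapping and 5′-to-3′ decay by Xrn1 follow. As glucose runs out, yeast cells stop dividing, switch to non-fermentable carbon and enter a resting state in which autophagy and vacuolar breakdown supply nutrients, while colonies also begin to release ammonia.

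The 4 libraries held 8441949 and 7965572 counts in Log phase and 7908688 and 8147904 on Day 4. Among deleted markers of the strain, no library had a count for MET17 (MET15), LEU2 had 0 to 3 and URA3 had 1 to 8. HIS3 is merged with a neighbour and gives no check. Ribosomal protein genes, set aside here with other ribosome, respiration and stress genes, took 32.6% and 33.6% of Log phase counts and 6.62% and 6.19% of Day 4 counts. Levels are CPM, counts per 1000000 counts of a library total scaled by TMM (edgeR's trimmed mean of M-values), given per library in replicate order. Changes are log2 fold changes of Day 4 over Log phase ± SE, with 2 libraries per group. Each SE comes from a fit to all 8 libraries that shares information on spread between groups and genes. It is not the spread of the 2 libraries of a group. Scaling to total counts instead raised the median log2 fold change of all genes by 0.44, from 0.01 to 0.45. A gene rose or fell where edgeR's quasi-likelihood test gave an adjusted p under 0.05. Most named genes were chosen by their change or p-value, so groups that do not overlap in them follow largely from that choice. An entry marked uncertain was assigned differently by the deposited tables.

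Most of the transcriptome changed between these end points. Of 5930 genes tested, 4401 (74.2%) were called, 2206 of them higher on Day 4 (37.2%) and 2195 lower (37.0%). Scaling to total counts gave 2850 higher and 1570 lower. By more than 2-fold, 1622 genes rose (27.4%) and 1421 fell (24.0%). The count of each gene group is read against these shares. The stress response element AGGGG, bound by Msn2 and Msn4, occurred on either strand within 300 bases upstream of the coding sequence in 34% of genes that rose more than 2-fold. It occurred in 14.1% of those that fell more than 2-fold and in 22.6% of all genes tested.

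**Figure D1:**
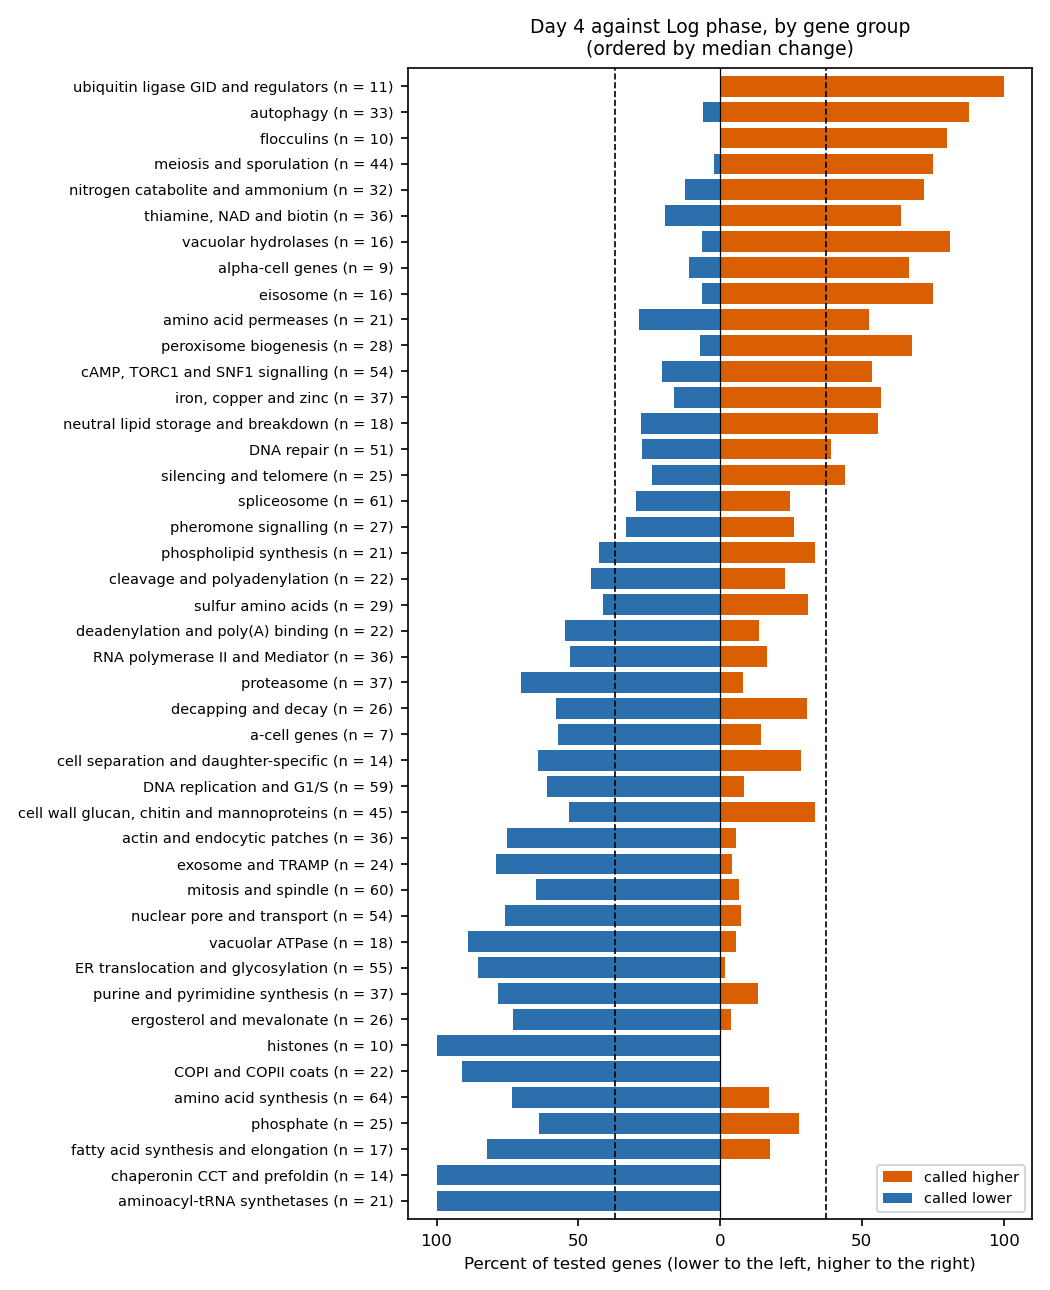
Percent of the tested genes of each described group that were called higher (orange, to the right) or lower (blue, to the left) on Day 4 against Log phase, with dashed lines at the shares over all genes tested (37.2% higher, 37.0% lower). Autophagy, meiosis and GID ubiquitin ligase genes lie far to the right, and aminoacyl-tRNA synthetase, chaperonin, histone and coat protein genes far to the left.

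The 12 genes that rose most, outside the groups set aside, included a glutamate dehydrogenase, an ammonium exporter and a hexose transporter gene. GDH3 (chromosome I, 31567 to 32940), which encodes an NADP-dependent glutamate dehydrogenase, had 67.7 and 79.7 CPM in Log phase and 4731 and 4658 CPM on Day 4. Its change was 5.99 ± 0.22 (edgeR adjusted p = 3.33e-16), and the groups did not overlap. ATO2, an ammonium exporter gene, had 20.7 and 21.5 CPM in Log phase and 1034 and 992 CPM on Day 4 (5.59 ± 0.19), and HXT5, a hexose transporter gene used when glucose is scarce, had 37.9 and 35.7 CPM in Log phase and 1732 and 1701 CPM on Day 4 (5.54 ± 0.18). For both, each Day 4 library lay far above each Log phase library. NGL3, which encodes a poly(A)-directed exonuclease related to Ccr4, rose from near the detection limit, with 3.30 and 1.74 CPM in Log phase and 145 and 146 CPM on Day 4 (5.83 ± 0.26). ATG39, the receptor for autophagy of the nuclear envelope, had 4.02 and 2.69 CPM in Log phase and 175 and 154 CPM on Day 4 (5.60 ± 0.24). IGD1, an inhibitor of the glycogen debranching enzyme, had 44.3 and 54.2 CPM in Log phase and 1986 and 2003 CPM on Day 4 (5.34 ± 0.20), and SUR1, a sphingolipid mannosyltransferase subunit gene, had 3.45 and 2.37 CPM in Log phase and 119 and 119.9 CPM on Day 4 (5.34 ± 0.27). The remaining 5 of the 12 have no role given here: YMR206W (6.23 ± 0.24), YKL107W (5.95 ± 0.35), YCL048W-A (5.67 ± 0.20), DPC7 (5.56 ± 0.19) and YDL218W (5.36 ± 0.22). YMR206W (chromosome XIII, 675896 to 676837) had the largest change of all 12, with 12.5 and 10.9 CPM in Log phase and 868 and 900.2 CPM on Day 4.

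The genes that fell most were led by glucose transporters. HXT1 (chromosome VIII, 290913 to 292625), the low-affinity hexose transporter gene, had 129.9 and 107 CPM in Log phase and 1.73 and 2.33 CPM on Day 4 (−5.85 ± 0.30, edgeR adjusted p = 3.21e-14). HXT2 had 352 and 383 CPM in Log phase and 8.32 and 17.3 CPM on Day 4 (−4.83 ± 0.28) and HXT3 had 1188 and 1056 CPM in Log phase and 61.9 and 67.0 CPM on Day 4 (−4.12 ± 0.19). All 3 transporters were lower in each Day 4 library than in each Log phase library, while HXT5 moved the other way. MIG2, a repressor of genes that glucose shuts off, had 179 and 158 CPM in Log phase and 8.67 and 5.34 CPM on Day 4 (−4.59 ± 0.23). CYS3, the last enzyme of cysteine synthesis from cystathionine, had 1050.0 and 1148 CPM in Log phase and 55.1 and 39.9 CPM on Day 4 (−4.53 ± 0.19). GAS1, a cell wall glucanosyltransferase gene that overlaps an entry on the other strand, had 1476 and 1320.3 CPM in Log phase and 85.5 and 72.9 CPM on Day 4 (−4.14 ± 0.22). YEF3, translation elongation factor 3, had 1594 and 1548 CPM in Log phase and 93.3 and 107 CPM on Day 4 (−3.97 ± 0.18). MKC7, an aspartyl protease of the cell surface, fell (−4.27 ± 0.23), as did INA1 (−4.42 ± 0.24), YBR191W-A (−3.97 ± 0.18) and YOR121C (−4.09 ± 0.18), which overlaps GCY1. PHO12 (−3.92 ± 0.22) is an acid phosphatase gene that may share reads with its near-identical copy PHO11.

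**Figure D2:**
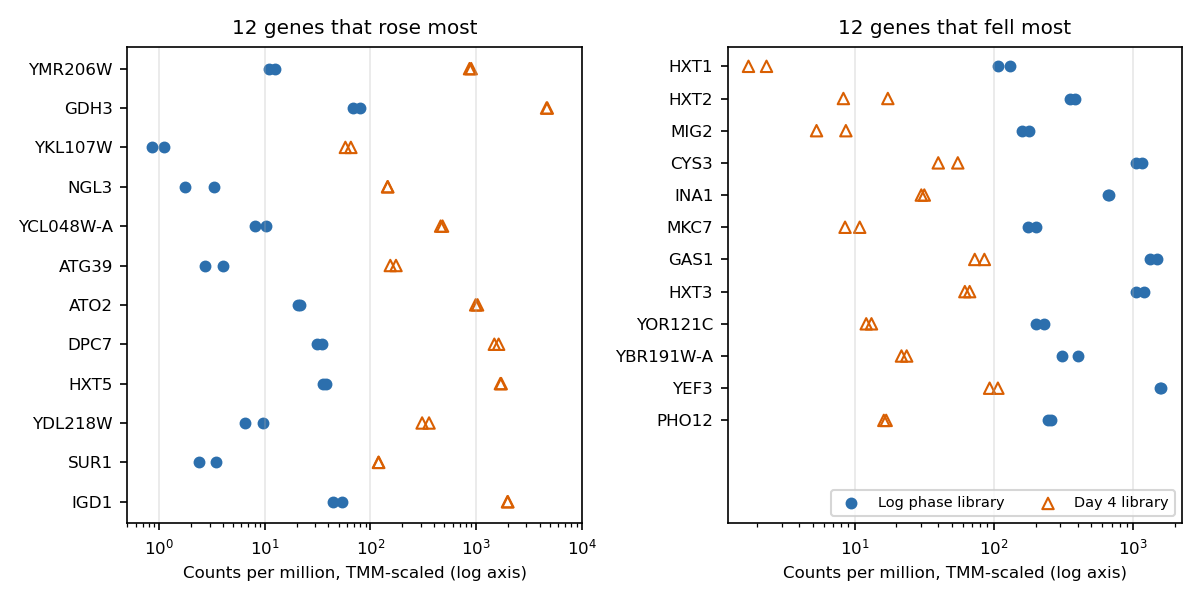
Level in each library (CPM after TMM scaling, log axis) of the 12 genes that rose most and the 12 that fell most; filled circles are Log phase libraries and open triangles Day 4 libraries. The libraries of each group lie close together and the groups do not overlap for any of the 24 genes. That gap follows largely from choosing genes with large called changes.

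Most genes for using poor nitrogen sources rose and most genes for making amino acids fell. Of 32 nitrogen catabolite and ammonium genes, 23 rose and 4 fell (median log2 fold change 1.32, against 0.01 over all genes). PUT4, the proline permease gene, had 50.3 and 43.5 CPM in Log phase and 1492 and 1376 CPM on Day 4 (4.93 ± 0.17), and MEP2, an ammonium permease and sensor gene, had 27.3 and 20.1 CPM in Log phase and 302 and 293 CPM on Day 4 (3.65 ± 0.18). PUT1, proline oxidase, rose too (3.09 ± 0.16). GDH1, the glutamate dehydrogenase of growing cells and the counterpart of GDH3, went the other way, with 275 and 242 CPM in Log phase and 105 and 83.4 CPM on Day 4 (−1.46 ± 0.16), and arginase CAR1 fell (−1.20 ± 0.15). PUT3 and GZF3 were also called lower (−0.40 ± 0.17 and −0.50 ± 0.23), and with scaling to total counts neither is called and the sign of PUT3 turns. Amino acid permease genes divided, with 11 of 21 higher and 6 lower (median 0.81). The general permease GAP1 (3.20 ± 0.19), DIP5 (2.93 ± 0.17) and AGP2 (2.92 ± 0.19, uncertain) rose. Permeases GNP1 (−2.65 ± 0.19), MUP1 (−2.19 ± 0.18), HIP1 (−1.39 ± 0.17) and TAT2 (−0.95 ± 0.15) fell. PUT3 (edgeR adjusted p up to 0.134) and GZF3 (edgeR adjusted p up to 0.207) lost their calls without any 1 of the 4 libraries.

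GATA factors such as Gln3 and Gat1, which turn on nitrogen catabolite genes, bind GATAAG. These letters occurred on either strand in the 300 bases upstream of 46.9% of the genes of that list, against 14.8% of all genes. Windows are shown for the called members of the list with the smallest p that hold it, with the motif, or its reverse complement, in capitals. GDH3 lies at chrI:31295-31324 on the + strand and MEP2 at chrXIV:357208-357237 on the + strand (R64).
GDH3: acttatcttatcGATAAGcagtattgatat
MEP2: aagaccctgtgcCTTATCaatgaagtattc

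Of 64 amino acid synthesis genes, 47 fell and 11 rose (median −1.44). HIS1, the first enzyme of histidine synthesis, had 491 and 569 CPM in Log phase and 45.4 and 37.1 CPM on Day 4 (−3.68 ± 0.17), and the homoserine kinase gene THR1 had 536 and 540.3 CPM in Log phase and 68.1 and 64.8 CPM on Day 4 (−3.02 ± 0.17). ASN2 (−2.73 ± 0.16), for asparagine, and ARO2 (−2.63 ± 0.16), for chorismate, fell as well. The 11 that rose include CPA1 (2.53 ± 0.19), of arginine synthesis. They also include the serine synthesis gene SER3 (2.90 ± 0.16, uncertain) and BAT2 (1.44 ± 0.17), the cytosolic branched-chain aminotransferase. The Gcn4 site TGACTC occurred upstream of 62.9% of the list and of 8.0% of all genes, and the shares among genes that rose or fell more than 2-fold were 9.25% and 7.87%. The windows, chosen likewise, are those of HIS1 at chrV:265951-265980 on the − strand and THR1 at chrVIII:159325-159354 on the + strand (R64). Capitals mark the reverse complement of the site in each.
HIS1: aagcttccaagtGAGTCAcctctaccgttg
THR1: aaatttgtgcaaGAGTCAtcatctcgaaaa

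Nucleotide genes mostly fell and vitamin genes mostly rose, while sulfur amino acid genes lay near the shares of all genes. Sulfur amino acid genes had 9 of 29 higher (31.0%, against 37.2% of all genes) and 12 lower (41.4%, against 37.0%). The sign of their median (−0.40) turns with scaling to total counts. The S-adenosylmethionine cycle genes SAH1 (−3.20 ± 0.20), SAM2 (−2.52 ± 0.16) and SAM1 (−3.85 ± 0.22, uncertain) fell with CYS3. Among the 9 that rose, those with the smallest p were STR3 (3.45 ± 0.25) and STR2 (1.76 ± 0.19), for transsulfuration, MUP3 (2.81 ± 0.20), a methionine permease gene, and MET30 (2.09 ± 0.16), a ubiquitin ligase subunit gene of the sulfur pathway. Of 37 purine and pyrimidine genes, 29 fell and 5 rose (median −1.31). FUR1, which salvages uracil, had 537 and 586 CPM in Log phase and 42.3 and 42.7 CPM on Day 4 (−3.72 ± 0.17). The GMP synthase gene GUA1 (−3.33 ± 0.20) and the IMP dehydrogenase gene IMD4 (−3.59 ± 0.17), which may share reads with its paralogs, also fell. URA10, the minor orotate phosphoribosyltransferase gene, had 10.3 and 6.17 CPM in Log phase and 128 and 131 CPM on Day 4 (3.96 ± 0.22), and URA8 (1.82 ± 0.16), URA2 (1.15 ± 0.15) and ADE8 (0.76 ± 0.16) rose as well. Thiamine, NAD and biotin genes had 23 of 36 higher and 7 lower (median 1.22). SNZ1, of vitamin B6 synthesis and known to be induced in stationary phase, had 53.9 and 54.1 CPM in Log phase and 747 and 751 CPM on Day 4 (3.79 ± 0.17). SNO3 (2.77 ± 0.24) and THI11 (2.40 ± 0.23) rose too and belong to families with near-identical copies. The nicotinate salvage genes NPT1 (−1.59 ± 0.15) and NMA1 (−2.25 ± 0.23) fell.

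Among metal genes, 21 of 37 rose and 6 fell (median 0.53). The cell wall mannoprotein genes FIT2 and FIT3, which help retain iron siderophores, rose. FIT3 had 375 and 207 CPM in Log phase and 1346 and 1236 CPM on Day 4 (2.15 ± 0.21), with Log phase replicates further apart than Day 4 replicates, and FIT2 changed by 1.70 ± 0.16. The high-affinity iron uptake genes moved the other way: the permease FTR1 (−1.72 ± 0.15), the oxidase FET3 (−1.16 ± 0.15) and the reductase FRE1 (−1.59 ± 0.17) fell. The zinc regulator ZAP1 rose (1.88 ± 0.19) and the vacuolar zinc transporter ZRC1 fell (−1.46 ± 0.14). CUP1-1, a copper metallothionein gene in a tandem repeat, had 2002 and 2254 CPM in Log phase and 6275 and 5335 CPM on Day 4 (1.45 ± 0.15). Phosphate genes had 16 of 25 lower and 7 higher (median −1.51). The polyphosphate synthase subunits VTC3 (−2.89 ± 0.17) and VTC4 (−2.97 ± 0.18) and the phosphatase PHO3 (−3.29 ± 0.18) fell. The sodium-phosphate transporter gene PHO89 had 21.6 and 17.7 CPM in Log phase and 329 and 347 CPM on Day 4 (4.10 ± 0.18), and PHM7 (4.39 ± 0.18) and the transcription factor gene PHO4 (3.21 ± 0.26) rose.

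Most autophagy and vacuolar hydrolase genes rose. Of 33 autophagy genes tested, 29 rose and 2 fell (median 2.38). ATG8, whose lipid-linked product forms the autophagosome membrane, had 5.75 and 3.80 CPM in Log phase and 115 and 123 CPM on Day 4 (4.62 ± 0.24, uncertain), and ATG33 (2.77 ± 0.16), for mitophagy, and ICY2 (3.35 ± 0.17) rose too. The members that fell were ATG27 (−0.71 ± 0.15) and ATG18 (−0.53 ± 0.19), and both calls are lost with scaling to total counts. Of 16 vacuolar hydrolase genes, 13 rose and 1 fell (median 1.19). Proteinase B, PRB1, had 146 and 167 CPM in Log phase and 1077 and 1125 CPM on Day 4 (2.82 ± 0.15), the α-mannosidase AMS1 had 73.6 and 53.1 CPM in Log phase and 849 and 802 CPM on Day 4 (3.70 ± 0.17), and the acid trehalase ATH1 (3.31 ± 0.19) and the carboxypeptidase Y inhibitor TFS1 (3.39 ± 0.25) rose as well. The aminopeptidase gene APE3 was called lower (−0.32 ± 0.14), a sign that turns with scaling to total counts. The vacuolar ATPase, which acidifies the vacuole, did not follow: 16 of 18 subunit and assembly genes fell (median −1.17), such as VMA10 (−1.71 ± 0.14), VMA8 (−1.57 ± 0.15) and VMA3 (−1.44 ± 0.14). VMA7 was the exception, with 237 and 239 CPM in Log phase and 539 and 630.2 CPM on Day 4 (1.29 ± 0.15). ATG18 (edgeR adjusted p up to 0.217) lost its call without Log phase replicate 2 or Day 4 replicate 2. APE3 (edgeR adjusted p up to 0.255) lost its call without any 1 of the 4 libraries.

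The ubiquitin system divided by its parts. All 11 genes of a list of the GID ubiquitin ligase, a complex that degrades gluconeogenic enzymes when glucose returns, and of related regulators rose (median 2.57, the value of the polyubiquitin gene UBI4, which is no part of the complex). GID8 had 7.18 and 8.86 CPM in Log phase and 315 and 330.1 CPM on Day 4 (5.33 ± 0.23), and GID11 (4.44 ± 0.21), RMD5 (3.31 ± 0.20) and the polyubiquitin gene UBI4 (2.57 ± 0.17) rose as well. GID8 overlaps an entry on the other strand. Of 37 proteasome genes, 26 fell and 3 rose (median −0.60). With scaling to total counts the proteasome counts were 12 lower and 6 higher (median −0.16). The fall was moderate, as in PRE9 with 332 and 298 CPM in Log phase and 92.9 and 101 CPM on Day 4 (−1.70 ± 0.16) and in PRE1 (−1.25 ± 0.15), RPN7 (−1.11 ± 0.15) and PRE6 (−1.09 ± 0.15). RPN4, the transcription factor that activates proteasome genes, moved the other way, with 125 and 135 CPM in Log phase and 666 and 685 CPM on Day 4 (2.38 ± 0.16, edgeR adjusted p = 4.12e-12). RPN3 (0.77 ± 0.18) and BLM10 (0.43 ± 0.15), an alternative cap, also rose. The Rpn4 element GGTGGCAAA occurred upstream of 75.0% of the list and of 1.23% of all genes. It is shown in capitals for PRE9 at chrVII:761223-761252 and PRE1 at chrV:177683-177712, both on the + strand (R64). BLM10 (edgeR adjusted p up to 0.0978) lost its call without Log phase replicate 2, Day 4 replicate 1 or Day 4 replicate 2.
PRE9: ttaccctgcaGGTGGCAAAaaatttataga
PRE1: aaatctttacGGTGGCAAAaaataaagaaa

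Most sterol and fatty acid synthesis genes fell and most peroxisome biogenesis genes rose, while neutral lipid genes divided. Ergosterol and mevalonate genes had 19 of 26 lower and 1 higher (median −1.32). ERG6, a sterol methyltransferase gene, had 968 and 956 CPM in Log phase and 115 and 99.2 CPM on Day 4 (−3.17 ± 0.16), and ERG4 (−3.24 ± 0.21), ERG2 (−2.49 ± 0.16) and ERG13 (−2.49 ± 0.16) fell with it. The exception was ECM22 (0.81 ± 0.18), a transcription factor gene of the pathway. Of 17 fatty acid genes, 14 fell and 3 rose (median −1.64). The elongases ELO3 (−3.64 ± 0.19) and ELO2 (−3.06 ± 0.19), the synthase subunit FAS2 (−1.99 ± 0.15) and the acyl-CoA binding protein ACB1 (−2.18 ± 0.16) fell. The desaturase OLE1 had 104 and 109 CPM in Log phase and 443 and 409 CPM on Day 4 (2.00 ± 0.16), and its activator SPT23 (0.77 ± 0.15) and the fatty acid activating enzyme FAA1 (2.15 ± 0.14) rose too. Neutral lipid genes had 10 of 18 higher and 5 lower (median 0.51), with the lipid droplet protein PET10 (2.89 ± 0.16), the lipases TGL3 (1.91 ± 0.17) and TGL4 (1.21 ± 0.15) and the triacylglycerol synthase DGA1 (2.22 ± 0.21) among those that rose. The other triacylglycerol synthase gene, LRO1, fell (−1.03 ± 0.22), as did the steryl ester hydrolases YEH1 (−1.05 ± 0.21) and YEH2 (−0.99 ± 0.21). Peroxisome biogenesis genes had 19 of 28 higher and 2 lower (median 0.77). PEX18, a receptor partner for import, had 2.44 and 1.90 CPM in Log phase and 71.9 and 74.8 CPM on Day 4 (5.06 ± 0.26).

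Phospholipid synthesis genes had 7 of 21 higher (33.3%) and 9 lower (42.9%), near the shares of all genes (37.2% and 37.0%). The sign of the median (−0.26) turns with scaling to total counts. OPI3, a methyltransferase of phosphatidylcholine synthesis, had 180.4 and 156 CPM in Log phase and 2205 and 2166 CPM on Day 4 (3.70 ± 0.16). INO1, which makes inositol phosphate, had 32.0 and 32.1 CPM in Log phase and 165 and 173 CPM on Day 4 (2.40 ± 0.18), and the phosphatidate phosphatase PAH1 (2.73 ± 0.16) and the regulator INO4 (2.01 ± 0.18) rose. The genes EPT1 (−2.45 ± 0.25) and CPT1 (−1.30 ± 0.17), for making phospholipids from diacylglycerol, and PIS1 (−1.53 ± 0.16), for phosphatidylinositol, fell. The Ino2-Ino4 core CATGTG occurred upstream of 61.9% of the list and of 7.05% of all genes. Capitals mark its reverse complement in OPI3 at chrX:573066-573095 and INO1 at chrX:136094-136123, both on the − strand (R64).
OPI3: tatgcaaacccaCACATGcatcgttggttt
INO1: acttatttaattCACATGgagcagagaaag

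Most genes of the cell cycle lists fell. Of 59 DNA replication and G1/S genes, 36 fell and 5 rose (median −0.74), against 25 and 10 with scaling to total counts. The sliding clamp gene POL30, which overlaps an entry on the other strand, had 258 and 254 CPM in Log phase and 46.1 and 51.9 CPM on Day 4 (−2.39 ± 0.17). The ribonucleotide reductase gene RNR1 (−2.50 ± 0.18) and the G1 cyclins CLN2 (−2.34 ± 0.18) and CLN1 (−1.84 ± 0.16) fell as well. RNR3, the damage-induced counterpart of RNR1, rose (1.60 ± 0.28), as did DPB11 (1.28 ± 0.20), TAH11 (0.97 ± 0.22) and CTF4 (0.39 ± 0.16). Of 60 mitosis and spindle genes, 39 fell and 4 rose (median −1.04), against 32 and 12 with that scaling. The tubulin genes fell: TUB2 had 829.9 and 792 CPM in Log phase and 130.5 and 112 CPM on Day 4 (−2.74 ± 0.15), with TUB3 (−3.09 ± 0.20) and TUB1 (−2.38 ± 0.17), and the septum chitin synthase CHS2 (−2.26 ± 0.16) fell too. The 4 that rose, among them CDC15 (0.80 ± 0.22) and SMC4 (0.65 ± 0.19), each changed by less than 1 on the log2 scale. All 10 histone genes fell (median −1.34). The H4 gene pair fell by different amounts, with HHF2 at 1203 and 1212 CPM in Log phase and 135 and 129.8 CPM on Day 4 (−3.19 ± 0.15) and HHF1 at 1550.4 and 1359.8 CPM in Log phase and 369 and 443 CPM on Day 4 (−1.84 ± 0.15). These paralogs encode the same protein, and whether reads were divided between them was not tested. The MluI cell cycle box ACGCGT, bound by MBF, occurred upstream of 35.6% of the replication list and of 3.55% of all genes. It is in capitals for POL30 at chrII:425944-425973 and RAD27, the flap endonuclease gene (−1.74 ± 0.16), at chrXI:225986-226015, both on the − strand (R64). CTF4 (edgeR adjusted p up to 0.141) lost its call without any 1 of the 4 libraries. SMC4 (edgeR adjusted p up to 0.1) lost its call without Day 4 replicate 2. With tailed reads counted in place of all reads, the log2 fold change of CTF4 turned to −0.03.
POL30: ccaaaacgcgaaACGCGTaacttttttttt
RAD27: ataggaaacgcgACGCGTaacatcgcgcaa

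Cell wall genes divided, with 24 of 45 lower and 15 higher (median −0.75). Among those that fell were UTR2 (−3.29 ± 0.17) and CIS3 (−2.81 ± 0.18) beside GAS1. The alternative glucan synthase GSC2 had 121 and 106 CPM in Log phase and 1319 and 1338 CPM on Day 4 (3.55 ± 0.15), while its counterpart in growing cells, FKS1, fell (−1.95 ± 0.22). The wall glycoprotein YGP1 (3.28 ± 0.15), the phospholipase PLB1 (2.72 ± 0.16) and PIR3 (4.71 ± 0.19, uncertain) rose, while PIR1 (−2.50 ± 0.21) fell. Of 14 cell separation genes, 9 fell and 4 rose (median −0.72; 5 and 5 with scaling to total counts), with SUN4 (−2.76 ± 0.17), DSE2 (−1.86 ± 0.18) and DSE4 (−1.02 ± 0.14) among those that fell. ASH1, a repressor in daughter cells, and SIC1, an inhibitor of the S-phase kinase, rose (0.98 ± 0.16 and 0.46 ± 0.17). Actin and endocytic patch genes had 27 of 36 lower and 2 higher (median −0.81; 17 and 6 with that scaling), with the actin regulators COF1 (−1.64 ± 0.15) and PFY1 (−1.58 ± 0.14) and the myosin MYO2 (−1.91 ± 0.18) among those that fell. The exceptions were MYO3 (0.92 ± 0.16), a class I myosin gene, and RVS161 (0.36 ± 0.15). SIC1 (edgeR adjusted p up to 0.0973) and RVS161 (edgeR adjusted p up to 0.205) lost their calls without any 1 of the 4 libraries.

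Of 10 flocculin genes, which encode adhesins, 8 rose and the other 2 did not pass the test (median 1.80). FLO11, the adhesin of biofilms and mats, had 9.05 and 12.02 CPM in Log phase and 38.0 and 37.4 CPM on Day 4 (1.84 ± 0.25, uncertain). FLO9 (2.79 ± 0.25), FLO1 (2.01 ± 0.31) and FLO5 (1.86 ± 0.25) are alike and may share reads, and all stayed under 40 CPM on Day 4. Eisosome genes, for furrows of the plasma membrane, had 12 of 16 higher and 1 lower (median 1.03). YNL194C, of the Sur7 family, had 179 and 123 CPM in Log phase and 3122 and 3155 CPM on Day 4 (4.38 ± 0.20). The family's founding member SUR7 went the other way, with 432 and 544 CPM in Log phase and 78.2 and 56.4 CPM on Day 4 (−2.86 ± 0.18). NCE102 (2.77 ± 0.19) and FMP45 (3.79 ± 0.22) rose and are uncertain.

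Most secretory pathway genes fell. Of 55 genes for ER translocation and glycosylation, 47 fell and 1 rose (median −1.22). With scaling to total counts, 34 of them fell and 2 rose (median −0.78). The translocon subunit SSS1 had 801 and 869 CPM in Log phase and 252 and 228 CPM on Day 4 (−1.80 ± 0.15), and the oligosaccharyltransferase subunits SWP1 (−2.83 ± 0.18) and STT3 (−1.76 ± 0.15) fell. The exception was ALG6 (0.39 ± 0.14). Of 22 vesicle coat genes, 20 fell and the other 2 did not pass the test (median −1.38). Coat gene counts were 17 lower and 1 higher with scaling to total counts (median −0.94). The GTPase gene ARF1 had 1478 and 1297 CPM in Log phase and 191 and 200.03 CPM on Day 4 (−2.83 ± 0.15). All 21 aminoacyl-tRNA synthetase genes were lower (median −2.61), with KRS1 (−3.23 ± 0.17), TYS1 (−2.97 ± 0.17) and WRS1 (−2.77 ± 0.15), and so were all 14 chaperonin and prefoldin genes (median −1.82), with CCT3 (−2.48 ± 0.18) and CCT4 (−2.23 ± 0.16). Nuclear pore and transport genes had 41 of 54 lower and 4 higher (median −1.13). The Ran genes moved apart: GSP1 had 2535 and 2394 CPM in Log phase and 278 and 289.6 CPM on Day 4 (−3.12 ± 0.16), and its close paralog GSP2 had 39.4 and 30.2 CPM in Log phase and 188 and 198 CPM on Day 4 (2.47 ± 0.17). Their partners YRB1 (−2.96 ± 0.16), RNA1 (−2.75 ± 0.16) and NTF2 (−2.89 ± 0.17) fell. Of 36 RNA polymerase II and Mediator genes, 19 fell and 6 rose (median −0.59; 11 and 10 with scaling to total counts), with the smallest p in the shared subunits RPO26 (−2.67 ± 0.16), RPB5 (−2.39 ± 0.17) and RPB8 (−1.99 ± 0.17). SSN8, the cyclin of the Mediator kinase module, rose (1.57 ± 0.28). The spliceosome list had 18 of 61 lower and 15 higher (median 0.00), and 6 lower and 28 higher with scaling to total counts. ALG6 (edgeR adjusted p up to 0.0854) lost its call without any 1 of the 4 libraries.

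Mating-type genes were examined because the strain is MATa. Of 9 α-cell genes, 6 rose and 1 fell (median 1.13), and the list as a whole took 0.00912% and 0.00874% of counts in Log phase and 0.0531% and 0.0498% on Day 4. None of the α-cell markers was at 0. AFB1, also one of these markers, was the member that fell, and with scaling to total counts 7 members rose and 0 fell. The α-factor gene MF(ALPHA)1 (chromosome XVI, 193648 to 194145) had 8.91 and 11.5 CPM in Log phase and 281 and 229.7 CPM on Day 4 (4.65 ± 0.22, edgeR adjusted p = 7.72e-15). Most of the rise of the list was this gene, and its libraries did not overlap. The α-agglutinin gene SAG1 had 20.7 and 20.2 CPM in Log phase and 72.0 and 72.7 CPM on Day 4 (1.82 ± 0.19), and the a-factor receptor gene STE3 stayed near 10 CPM on Day 4 (2.51 ± 0.54, uncertain). MF(ALPHA)2 (0.56 ± 0.69) did not pass the test. Of 7 a-cell genes, 4 fell and 1 rose (median −0.63), and with scaling to total counts 3 fell and 2 rose. Their summed share of counts was 0.275% and 0.3001% in Log phase and 0.335% and 0.304% on Day 4. The member that rose was AGA2 (0.46 ± 0.15), which encodes the adhesion subunit of a-agglutinin. The protease BAR1 had 197 and 187 CPM in Log phase and 58.8 and 56.4 CPM on Day 4 (−1.73 ± 0.15), and the α-factor receptor STE2 (−1.17 ± 0.15), the a-factor exporter STE6 (−1.18 ± 0.21) and the a-factor gene MFA2 (−0.63 ± 0.16) fell, the last not called with scaling to total counts. MFA1 changed by 0.24 ± 0.14 and did not pass the test, with 1275 and 1468 CPM in Log phase and 1696 and 1538 CPM on Day 4. The source of the α-cell transcripts was not tested. Of 25 silencing and telomere genes, 11 rose (44%, against 37.2% of all genes) and 6 fell (24%, against 37.0%), with a median of 0.36. SIR1 (0.99 ± 0.20) was among those that rose. The N-acetyltransferase genes NAT1 (−2.21 ± 0.16) and ARD1 (−2.17 ± 0.16) were among those that fell. The pheromone signalling list had 7 of 27 higher (25.9%) and 9 lower (33.3%), with a median of −0.17. For this list, scaling to total counts gave 9 higher and 4 lower (median 0.27). AGA2 (edgeR adjusted p up to 0.0574) lost its call without any 1 of the 4 libraries.

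Meiosis and sporulation genes rose in these haploid cells. Of 44 tested, 33 rose and 1 fell (median 1.62), while the list stayed a small part of the RNA, from 0.0307% and 0.0270% to 0.137% and 0.145% of counts. RIM4, a translational repressor of meiosis, had 2.73 and 2.85 CPM in Log phase and 55.6 and 63.3 CPM on Day 4 (4.41 ± 0.28). SPS100, of the spore wall, had 2.59 and 3.32 CPM in Log phase and 97.9 and 108 CPM on Day 4 (5.12 ± 0.26, uncertain), and LDS1 (4.75 ± 0.38) and RRT8 (2.73 ± 0.20) rose. Of the markers of cells in meiosis, IME1 (1.41 ± 0.19), IME2 (1.71 ± 0.25), NDT80 (2.14 ± 0.27) and DIT1 (1.80 ± 0.27) rose, SPS1 (0.81 ± 0.52), SPS4 (0.79 ± 0.50) and SMK1 (−1.33 ± 0.62) did not pass the test, and SPS2 had 0 to 3 counts per library. Ume6 represses early meiosis genes in growing cells through URS1, whose core GGCGGC occurred upstream of 25% of the list and 5.14% of all genes. It is in capitals for RIM4 at chrVIII:56355-56384 on the + strand and REC8, a meiotic cohesin gene (4.28 ± 0.47), at chrXVI:571545-571574 on the − strand (R64).
RIM4: gcttaacgtttcGGCGGCtgtgatcaagga
REC8: gaacttgacttcGGCGGCaaaccaatatat

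Signalling genes of the cAMP, TORC1 and SNF1 pathways had 29 of 54 higher and 11 lower (median 0.59; 37 and 5 with scaling to total counts). Negative regulators of Ras and cAMP were among the rising ones: the Ras GTPase activator IRA2 had 152 and 149 CPM in Log phase and 771 and 831 CPM on Day 4 (2.41 ± 0.15), and the phosphodiesterase PDE1 (2.75 ± 0.16) rose, while RAS1 (−1.56 ± 0.16) and the cyclase-associated protein SRV2 (−1.57 ± 0.18) fell. Among SNF1 kinase subunits, SIP2 (2.95 ± 0.18) was higher and SNF4 (−1.32 ± 0.16) lower. The SNF1 gene itself (0.06, edgeR adjusted p = 0.743) did not pass the test. With scaling to total counts it was called higher, at 0.50. EGO4 (4.78 ± 0.23), of the TORC1 activating complex at the vacuole, had the smallest p among those that rose. DNA repair genes had 20 of 51 higher and 14 lower (median 0.37), the higher share being near that of all genes, and 30 higher and 5 lower with scaling to total counts. Among those that rose was the damage recognition gene RAD4, at 10.2 and 9.81 CPM in Log phase and 91.2 and 84.3 CPM on Day 4 (3.13 ± 0.20). RAD54 (1.96 ± 0.15), for recombination, and REV3 (2.31 ± 0.21), a translesion polymerase gene, rose, while the base excision genes OGG1 (−1.56 ± 0.24) and APN1 (−1.41 ± 0.16) fell.

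The machinery that makes, shortens and degrades poly(A) RNA changed unevenly. Of 22 cleavage and polyadenylation genes, 10 fell and 5 rose (median −0.30), whereas scaling to total counts gave 5 lower and 7 higher (median 0.15). The poly(A) polymerase gene PAP1 (17.7 and 19.1 CPM in Log phase and 22.7 and 19.9 CPM on Day 4, 0.21 ± 0.24, edgeR adjusted p = 0.445) and the endonuclease gene YSH1 (−0.28 ± 0.15, edgeR adjusted p = 0.106) did not pass the test. Within cleavage factor IA, RNA14 had 120.4 and 119 CPM in Log phase and 239 and 249.7 CPM on Day 4 and rose (1.03 ± 0.16), whereas CLP1 (−1.07 ± 0.23) and PCF11 (−0.58 ± 0.24) fell and RNA15 (−0.31 ± 0.27, uncertain) did not pass the test. HRP1 (−1.08 ± 0.16), CFT1 (−1.02 ± 0.17), SSU72 (−1.38 ± 0.19) and SWD2 (−1.76 ± 0.19) fell. CFT2 (−0.54 ± 0.19), YTH1 (−0.66 ± 0.26), PTI1 (−0.81 ± 0.21) and NAB2 (−0.62 ± 0.19) fell by less, and these 4 and PCF11 are not called with scaling to total counts. MPE1 (0.84 ± 0.17), SYC1 (0.82 ± 0.24), CTH1 (0.74 ± 0.17) and the phosphatase GLC7 (2.12 ± 0.22, uncertain) rose. FIP1, PFS2, PTA1 and REF2 lay between −0.16 and −0.00 and did not pass the test. With scaling to total counts REF2 is called higher, at 0.44. PCF11 (edgeR adjusted p up to 0.297) lost its call without Log phase replicate 2 or Day 4 replicate 1. CFT2 (edgeR adjusted p up to 0.149) lost its call without Log phase replicate 1 or Day 4 replicate 2. YTH1 (edgeR adjusted p up to 0.197) lost its call without Log phase replicate 1, Log phase replicate 2 or Day 4 replicate 1. NAB2 (edgeR adjusted p up to 0.058) lost its call without Log phase replicate 2. SYC1 (edgeR adjusted p up to 0.0761) lost its call without Log phase replicate 1.

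Of 22 deadenylation and poly(A)-binding genes, 12 fell and 3 rose (median −0.45), whereas scaling to total counts gave 6 lower and 5 higher (median −0.01). The poly(A)-binding protein gene PAB1 had 2259 and 2750.2 CPM in Log phase and 1244 and 1199.6 CPM on Day 4 (−1.04 ± 0.14). Of the Ccr4-Not complex, NOT5 (−1.43 ± 0.15), CAF40 (−1.22 ± 0.18), POP2 (−0.72 ± 0.16), NOT3 (−0.69 ± 0.17) and MOT2 (−0.52 ± 0.17) fell, and the deadenylase CCR4 itself (−0.39 ± 0.20, edgeR adjusted p = 0.0811) did not pass the test. CDC39 (−0.44 ± 0.15) and PAN3 (−0.47 ± 0.15) were called lower but lie at 0.00 and −0.02 with scaling to total counts. PAN2 (−0.32 ± 0.22), CDC36 (0.20 ± 0.15), CAF130 (−0.11 ± 0.20) and PBP1 (0.09 ± 0.15) did not pass the test. PBP2 (−0.81 ± 0.25) and the initiation factor gene TIF4632 (−0.93 ± 0.17) fell. With scaling to total counts POP2, NOT3, MOT2 and PBP2 are not called. Among RNA-binding regulators, PUF3, which acts on mRNAs for mitochondrial proteins, had 99.1 and 91.4 CPM in Log phase and 202 and 188 CPM on Day 4 (1.03 ± 0.16). JSN1 (0.72 ± 0.16) and PUF2 (0.59 ± 0.22, uncertain) rose, PUF6 (−2.37 ± 0.20) and VTS1 (−1.77 ± 0.23) fell, and PUF4 (−0.42 ± 0.24) and TIF4631 (−0.20 ± 0.25, uncertain) did not pass the test. MOT2 (edgeR adjusted p up to 0.117) lost its call without Log phase replicate 2 or Day 4 replicate 1. CDC39 (edgeR adjusted p up to 0.129) lost its call without Log phase replicate 1, Day 4 replicate 1 or Day 4 replicate 2. PAN3 (edgeR adjusted p up to 0.114) lost its call without Log phase replicate 2 or Day 4 replicate 2. PBP2 (edgeR adjusted p up to 0.0643) lost its call without Log phase replicate 1. PUF2 (edgeR adjusted p up to 0.123) lost its call without Log phase replicate 1 or Day 4 replicate 2. With tailed reads counted in place of all reads, the log2 fold change of PAN3 turned to 0.26.

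Of 26 decapping and decay genes, 15 fell and 8 rose (median −0.61), whereas scaling to total counts gave 12 lower and 8 higher (median −0.16). The decapping enzyme gene DCP2 had 303 and 303 CPM in Log phase and 152 and 120.4 CPM on Day 4 (−1.15 ± 0.15), its partner DCP1 had 7.61 and 6.80 CPM in Log phase and 0.693 and 0.556 CPM on Day 4 (−3.50 ± 0.58), and the exonuclease gene XRN1 had 513 and 517 CPM in Log phase and 317 and 290.0 CPM on Day 4 (−0.76 ± 0.14). All 3 core genes were called lower, with DCP1 near the detection limit on Day 4 and XRN1 at −0.32 with scaling to total counts. Some activators and the scavengers moved the other way: DHH1 (2.10 ± 0.26), EDC2 (2.39 ± 0.16), EDC1 (1.25 ± 0.22) and the cap scavengers DCS2 (4.03 ± 0.21) and DCS1 (1.59 ± 0.16) rose. EDC3 (−1.18 ± 0.19), PAT1 (−1.09 ± 0.21), SCD6 (−1.38 ± 0.18), SBP1 (−0.52 ± 0.14) and STM1 (−2.42 ± 0.14) fell. The LSM genes fell from LSM8 (−1.60 ± 0.25) and LSM4 (−1.62 ± 0.20) down to LSM3 (−0.53 ± 0.17), with LSM6 (−0.29 ± 0.15) not passing the test. LSM1, LSM3 and SBP1 are not called with scaling to total counts. EBS1 (1.07 ± 0.23), PBP4 (0.48 ± 0.16) and NAM7 (2.34 ± 0.43, uncertain) rose, and UPF3 (−0.07 ± 0.25) and NMD2 (−0.06 ± 0.19) did not pass the test. Of 24 exosome and TRAMP genes, 19 fell and 1 rose (median −0.94; 13 and 2 with scaling to total counts). The helicase gene MTR4 had 181 and 198 CPM in Log phase and 31.5 and 33.8 CPM on Day 4 (−2.54 ± 0.17). The core nuclease DIS3 (−1.12 ± 0.15), the nuclear subunit RRP6 (−1.01 ± 0.19) and the poly(A) polymerase of TRAMP, PAP2 (−1.28 ± 0.21), fell, as did SKI2 (−1.50 ± 0.17) of the cytoplasmic cofactor. RRP40, SKI7, SEN1 and LRP1 did not pass the test, and the member that rose was NAB3 (1.01 ± 0.23, uncertain). LSM3 (edgeR adjusted p up to 0.0557) lost its call without Day 4 replicate 2. PBP4 (edgeR adjusted p up to 0.119) lost its call without Log phase replicate 2 or Day 4 replicate 2. With tailed reads counted in place of all reads, the log2 fold change of PAT1 turned to 0.28, NAM7 turned to −0.12 and NAB3 turned to −0.15.

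**Figure D3:**
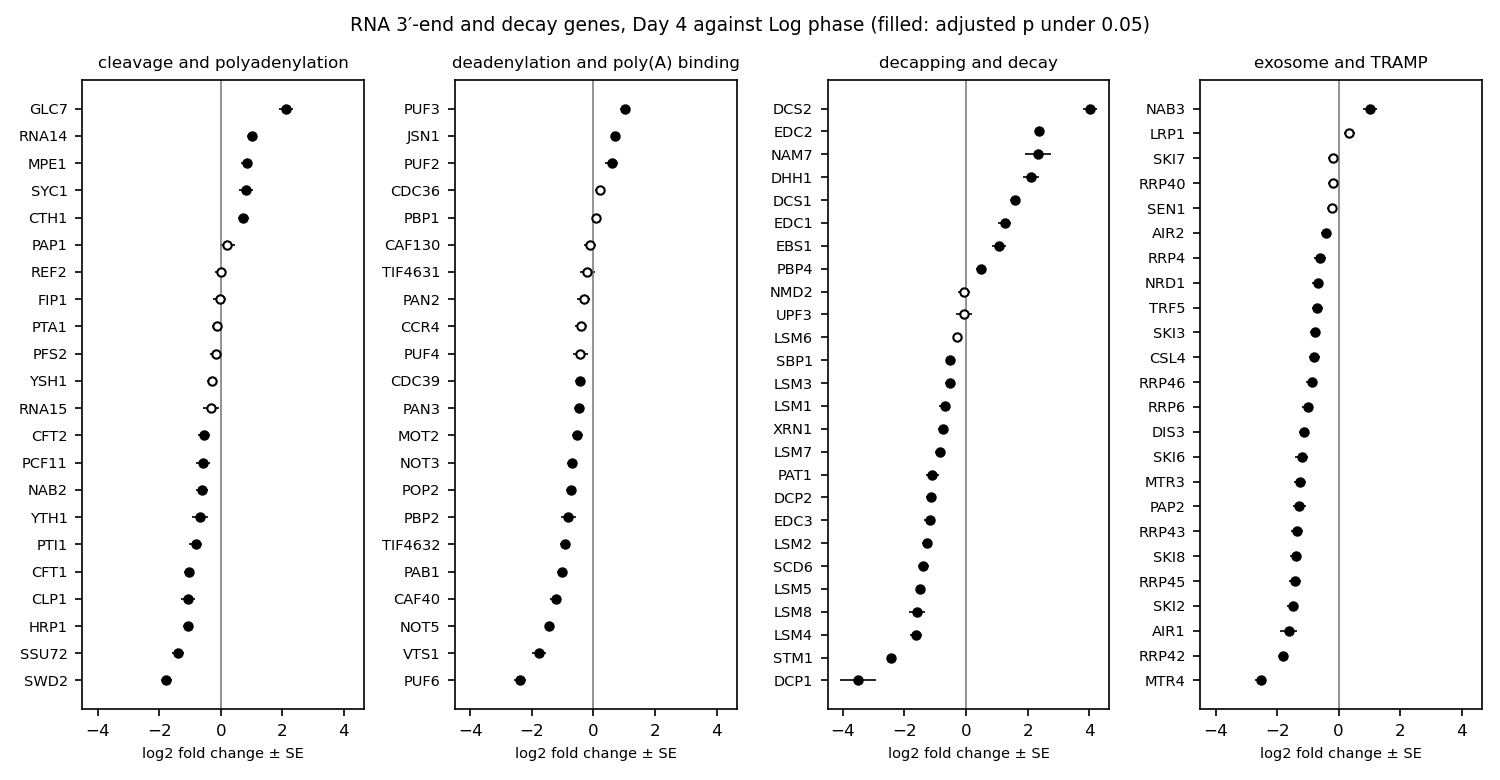
Log2 fold change on Day 4 against Log phase (points, 2 libraries per group) with SE from the fit to all 8 libraries (bars). Every tested gene of the lists for cleavage and polyadenylation, deadenylation and poly(A) binding, decapping and decay, and the exosome is shown. Filled points passed the test. The exosome list lies almost wholly below 0, while the other 3 lists have genes on both sides.

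Tails were shorter on Day 4, by about a nucleotide in the median. Over the 5388 genes that had 10 or more tailed reads per library, the median of the deposited mean tail length was 19.7 nt and 19.1 nt in the Log phase libraries and 18.1 nt and 17.9 nt on Day 4. The groups did not overlap, but with 2 libraries a side no exact test of a library value can reach significance. The replicates themselves differed by a median of 0.519 nt in Log phase and 0.160 nt on Day 4. Per gene, the median absolute difference between replicates was 1.02 nt in Log phase and 0.949 nt on Day 4, close to the median change of −1.17 nt between the groups. limma called 528 genes (9.8%), 464 with shorter tails (8.61%) and 64 with longer tails (1.19%). With each library centred on its median, 106 were shorter and 174 longer. The number of calls rested on all 4 libraries. Without Log phase replicate 1, 1 gene was called shorter and 0 longer (1016 at an unadjusted p under 0.05), and without Day 4 replicate 2, limma called 0 genes in all, with 1116 at an unadjusted p under 0.05. Without Log phase replicate 2 the counts were 128 shorter and 6 longer, and without Day 4 replicate 1 they were 107 and 10. Under the unadjusted threshold the fit of all libraries gave 1556 genes.

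Tail change differed between expression classes, and tails shortened more in genes that rose than in genes that fell most. The median change was 0.0261 nt in the 545 genes that fell more than 4-fold, −0.731 nt in 811 genes that fell 2- to 4-fold, −1.39 nt in 2596 genes changed by less or not called, −1.82 nt in 694 genes that rose 2- to 4-fold and −1.36 nt in 572 genes that rose more than 4-fold. Shorter tails were called in 3.49% of the first class and in 15.1% of the genes that rose 2- to 4-fold. Among genes that rose more than 4-fold the share was 9.79%, near the 8.94% of genes changed by less or not called. The first class holds many ribosome genes, and without ribosomal protein and ribosome assembly genes its 340 members had a median of −0.121 nt. Across 5218 genes, log2 fold change and tail change had Pearson's r = −0.178 and Spearman's rho = −0.217. Genes are not independent replicates, and both measures come from the same libraries. Of genes called in both, 245 rose with a shorter tail, 110 fell with a shorter tail, 33 fell with a longer tail and 17 rose with a longer tail.

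**Figure D4:**
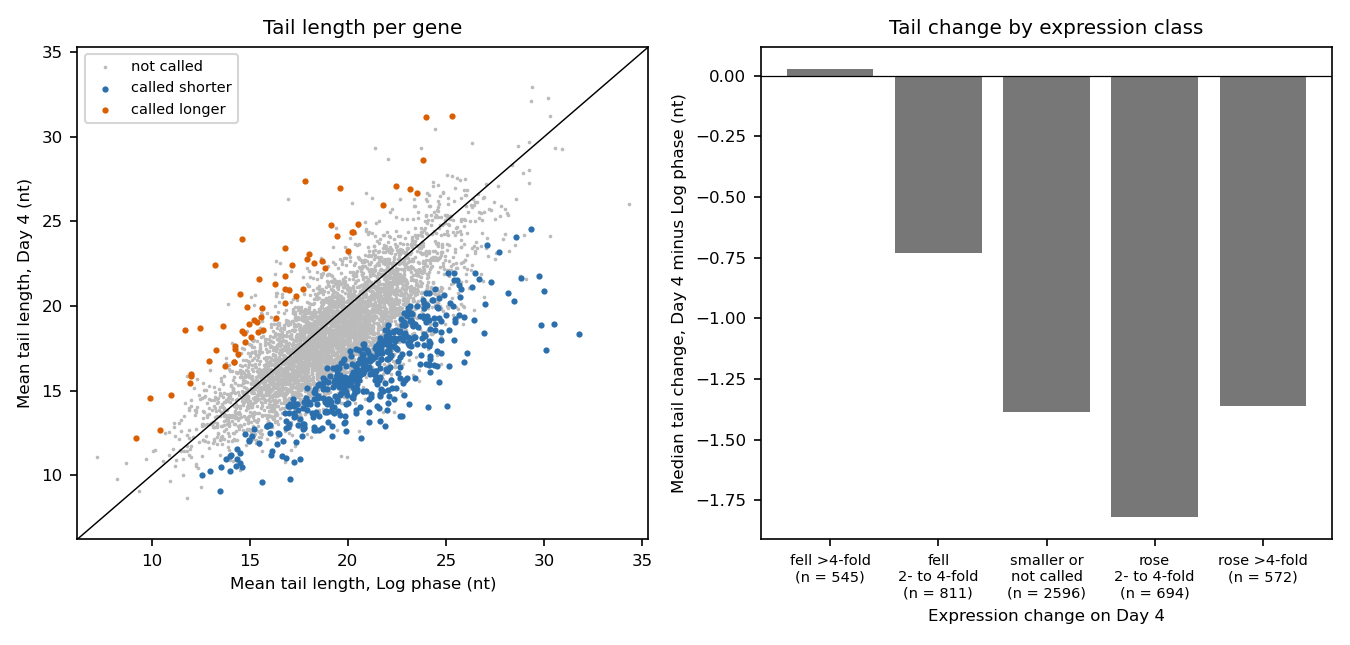
Left, mean tail length per gene in Log phase and on Day 4 (nt, mean of 2 libraries), with genes called shorter in blue and longer in orange and the line of equality. Right, median tail change (nt) by expression class, which runs from 0.0261 nt in genes that fell more than 4-fold to −1.82 nt in genes that rose 2- to 4-fold.

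The largest tail change was in LDB18, a dynactin subunit gene, which had mean tails of 29.9 and 33.7 nt in Log phase and 18.1 and 18.6 nt on Day 4 (−13.3 ± 1.42 nt, limma adjusted p = 0.00657, 32 to 110 tailed reads per library). MAK32 had 28.5 and 31.2 nt in Log phase and 16.5 and 21.3 nt on Day 4 (−10.9 ± 1.77 nt, 41 to 55 tailed reads per library) with no call in expression (0.04 ± 0.26). CAB3, of coenzyme A synthesis, had 22.1 and 23.2 nt in Log phase and 13.6 and 13.4 nt on Day 4 (−9.15 ± 0.747 nt, limma adjusted p = 0.00243, 236 to 934 tailed reads per library). In all 3 genes the Day 4 tails were shorter in each library than either Log phase value. COM2, a transcription factor gene, had 29.8 and 30.2 nt in Log phase and 20.2 and 21.6 nt on Day 4 (−9.11 ± 1.24 nt) at an expression change of 0.43 ± 0.17. RNH70 (−13.2 ± 2.54 nt), RRT15 (−12.3 ± 3.05 nt), PRP2 (−10.8 ± 2.26 nt), YBL044W (−9.65 ± 1.85 nt, uncertain) and KRE28 (−9.33 ± 2.41 nt) completed the 10 with YMR114C, described with the genes called in all measures. KRE28 Log phase tails were 29.6 nt and 20.7 nt, so 1 library carries much of its change. COM2 (edgeR adjusted p up to 0.135) lost its call without any 1 of the 4 libraries.

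The longest gains were led by EIS1, an eisosome gene (chromosome XIII, 332212 to 334743), with 18.1 and 17.5 nt in Log phase and 27.1 and 27.7 nt on Day 4 (9.61 ± 0.989 nt, limma adjusted p = 0.00657, 47 to 1182 tailed reads per library). FKS1, the glucan synthase gene that fell, had 21.4 and 17.8 nt in Log phase and 27.3 and 26.6 nt on Day 4 (7.44 ± 1.49 nt), and the tryptophan synthesis gene TRP3 had 23.9 and 24.1 nt in Log phase and 30.5 and 31.8 nt on Day 4 (6.96 ± 1.48 nt) while its level fell to under 5 CPM (−3.31 ± 0.30). STS1 (7.22 ± 1.69 nt), SAP1 (6.08 ± 1.40 nt) and NMD4 (8.64 ± 2.28 nt, uncertain) were called longer too. The other 4 were non-coding: the tRNA genes SUP16 (9.20 ± 1.39 nt) and SUP11 (6.98 ± 1.74 nt) and the small nucleolar RNAs SNR77 (6.24 ± 0.645 nt) and SNR54 (6.37 ± 1.01 nt). SNR77 had 12.5 and 12.4 nt in Log phase and 18.5 and 18.9 nt on Day 4. These 4 are listed in the tail tables and have no entry in the count table.

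Of 93 genes of the 4 RNA 3′-end and decay lists tested for tail length, 8 were called (8.6%, against 9.8% of all genes), 6 shorter and 2 longer. CCR4 had 20.04 and 19.9 nt in Log phase and 14.7 and 14.9 nt on Day 4 (−5.20 ± 1.09 nt, limma adjusted p = 0.0252) and NOT3 had 19.3 and 18.5 nt in Log phase and 15.0 and 13.6 nt on Day 4 (−4.55 ± 0.846 nt, limma adjusted p = 0.0185), both shorter in each Day 4 library. RNA14 (−3.27 ± 0.819 nt), LSM1 (−3.93 ± 0.859 nt), DCS1 (−4.52 ± 0.754 nt) and PBP4 (−5.38 ± 0.957 nt) were shorter as well. EDC1 (4.78 ± 1.20 nt) and TIF4631 (3.97 ± 0.706 nt, uncertain) were longer, and PAB1 changed by 1.90 ± 0.681 nt (limma adjusted p = 0.109).

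PUF3 levels rose, and Puf3 binds TGTANATA in the 3′ UTR and recruits deadenylases. On the coding strand, the letters occurred within 150 bases downstream of the stop codon in 96.1% of 76 mitochondrial ribosomal protein genes and in 13.9% of all genes tested for tail length. Among genes with shorter tails the share was 12.4%, and among those with longer tails 11.1%. The mitochondrial ribosomal protein genes had a median tail change of −0.170 nt, with 2 of 76 called, both shorter, against 9.8% of all genes called. The sites nearest the stop codon are in capitals for MRPS18 at chrXIV:58860-58889 and MRPL35 at chrIV:1111710-1111739, both on the + strand (R64), as the called members of that list.
MRPS18: atatatattcgTGTAAATAattcgattttt
MRPL35: ttatagtatccTGTACATAtaaaataacgt

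A smaller share of reads carried a tail on Day 4. Over the 4866 genes assigned alike by the tables, 42.2% and 40.6% of reads were tailed in Log phase and 38.2% and 37.6% on Day 4. The groups did not overlap at library level. These values pool the reads of all those genes, so they also depend on which genes supply the reads. Ribosomal protein genes alone went from 32.6% and 33.6% of all counts in Log phase to 6.62% and 6.19% on Day 4. As the rule for calling a tail is not given, a read without one need not come from RNA without a tail. The test used log2 odds of a read being tailed, whose median change over 4374 genes was −0.15. limma called 329 genes (7.52%), 264 with a lower share (6.04%) and 65 with a higher share (1.49%). With each library centred on its median, 152 were lower and 153 higher. edgeR on tailed and untailed counts called 443 lower and 147 higher. Leaving out 1 library cut the calls to 7 lower and 1 higher (Log phase replicate 1), 26 and 1 (Log phase replicate 2), 70 and 5 (Day 4 replicate 1) and 46 and 6 (Day 4 replicate 2).

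The 10 largest falls in share included CPS1 and GDH3, described with the genes called in all measures. MIN3 had 79.2% and 100% in Log phase and 24.3% and 20.4% on Day 4 (−3.87 ± 0.56 log2 odds, limma adjusted p = 0.0062). Its library at 100% had no untailed read, so the size of this change depends on the 0.5 added to tailed and untailed counts. SCS22, a gene for a protein that tethers the ER to the plasma membrane, had 80.8% and 78.6% in Log phase and 35.7% and 31.0% on Day 4 (−2.96 ± 0.24). RCM1, an rRNA methyltransferase gene, had 41.8% and 39.8% in Log phase and 10.1% and 11.5% on Day 4 (−2.47 ± 0.24) and CRZ1, the calcineurin-responsive transcription factor gene, had 78.5% and 84.0% in Log phase and 46.2% and 47.3% on Day 4 (−2.24 ± 0.23). In these 4 genes each Day 4 share was below each Log phase share. SOG2 (−2.48 ± 0.45), GLE2 (−2.29 ± 0.31), PSY4 (−2.21 ± 0.32) and BNA1 (−2.14 ± 0.31) were lower too. Among genes whose share rose, GET3, which delivers tail-anchored proteins, had 30.3% and 30.3% in Log phase and 52.2% and 57.4% on Day 4 (1.48 ± 0.20) at 946 and 871 CPM in Log phase and 348 and 371 CPM on Day 4. CTA1, the peroxisomal catalase gene, had 14.0% and 18.7% in Log phase and 44.4% and 41.7% on Day 4 (1.92 ± 0.34), and the decapping activator PAT1 had 11.3% and 9.28% in Log phase and 22.1% and 23.7% on Day 4 (1.37 ± 0.28). MLG1 (1.70 ± 0.39), RNT1 (1.53 ± 0.34), SYT1 (1.40 ± 0.30), MOR1 (1.37 ± 0.33) and RSN1 (1.36 ± 0.25) were higher as well. The share and the tail length of those reads did not always move together: SCS22 had a lower share with tails longer by 5.99 ± 1.08 nt, and RSN1 a higher share with a tail change of −4.36 ± 1.17 nt that did not pass the test (limma adjusted p = 0.0506).

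**Figure D5:**
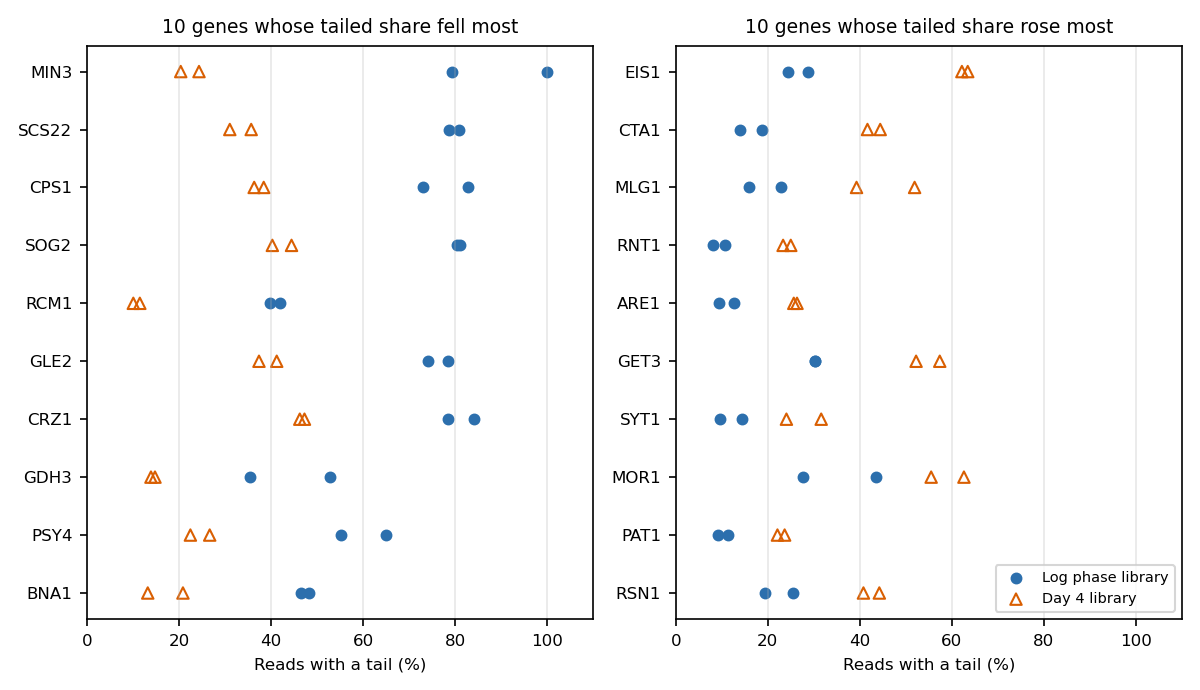
Percent of reads with a tail in each library for the 10 genes whose share fell most and the 10 whose share rose most among those called; filled circles are Log phase libraries and open triangles Day 4 libraries. For all 20 genes the libraries of the groups do not overlap, which follows largely from choosing genes with large called changes.

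Of 4288 genes tested for all 3 readouts, 47 were called in each. EIS1 rose with longer tails and a higher tailed share: its level was 25 and 30.5 CPM in Log phase and 185 and 207 CPM on Day 4 (2.82 ± 0.20), and its share of tailed reads 28.7% and 24.4% in Log phase and 62.2% and 63.4% on Day 4 (2.22 ± 0.20). It overlaps YMR031W-A on the other strand, and the strand setting of the counting is not given in the sources used here. GPP1, a glycerol phosphatase gene, fell with longer tails and a higher share, with levels of 4047 and 4055 CPM in Log phase and 712 and 647 CPM on Day 4 (−2.58 ± 0.16), tails of 18.1 and 17.8 nt in Log phase and 22.8 and 22.8 nt on Day 4 (4.86 ± 0.740 nt, limma adjusted p = 0.0107) and shares of 39.2% and 42.1% in Log phase and 56.5% and 55.0% on Day 4 (0.88 ± 0.19). The libraries of the 2 groups did not overlap in any readout of these genes. CPS1, a vacuolar carboxypeptidase gene (chromosome X, 97737 to 99467), rose (2.38 ± 0.20) while its tails were 28.1 and 28.1 nt in Log phase and 20.4 and 21.1 nt on Day 4 (−7.40 ± 0.845 nt) and its share 82.9% and 73.1% in Log phase and 36.3% and 38.4% on Day 4 (−2.60 ± 0.27). YMR114C likewise rose (4.25 ± 0.19) with shorter tails (24.6 and 24.7 nt in Log phase and 15.0 and 16.1 nt on Day 4, −9.12 ± 1.19 nt) and a lower share (31.7% and 25% in Log phase and 11.1% and 11.6% on Day 4, −1.65 ± 0.26).

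GDH3, among the genes that rose most, was also called in all 3. Its tails were 20.2 and 22.8 nt in Log phase and 16.7 and 16.6 nt on Day 4 (−4.88 ± 1.07 nt, limma adjusted p = 0.0277), and 52.9% and 35.3% in Log phase and 13.9% and 14.8% on Day 4 of its reads were tailed (−2.23 ± 0.33, limma adjusted p = 0.0062). Its tailed reads therefore rose by a smaller factor than its total reads. MGM1, of mitochondrial fusion, and YBL107W-A rose (0.85 ± 0.16 and 1.51 ± 0.17) with shorter tails (−8.07 ± 1.14 nt and −4.69 ± 0.689 nt) and lower shares (−1.25 ± 0.23 and −1.37 ± 0.25). YIL060W followed the same pattern (0.81 ± 0.18, −5.27 ± 0.855 nt, −1.05 ± 0.26) and overlaps YIL059C. The chaperone gene CAJ1 and the sedoheptulose bisphosphatase gene SHB17 fell (−0.44 ± 0.16 and −2.24 ± 0.17) with shorter tails (−5.18 ± 0.793 nt and −5.88 ± 0.974 nt) and lower shares (−1.40 ± 0.20 and −1.27 ± 0.31), and CAJ1 lies at −0.00 and is not called with scaling to total counts. ARE1, a steryl ester synthase gene, rose (0.49, edgeR adjusted p = 0.0152) with shorter tails (−7.30 ± 1.20 nt) and a higher share (1.51 ± 0.27). ARE1 overlaps YCR049C and YCR050C, and its expression call was lost without Log phase replicate 1 or Day 4 replicate 2. NOT3 (−1.34 ± 0.24), DCS1 (−1.32 ± 0.19) and EDC1 (1.01 ± 0.25) of the decay lists were called in share as well as in tail length and expression. Across the 4288 genes, tail change and share change had Pearson's r = 0.230 and Spearman's rho = 0.229, a description across genes. CAJ1 (edgeR adjusted p up to 0.149) lost its call without Log phase replicate 1, Log phase replicate 2 or Day 4 replicate 2.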

How the data were processed

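RNA from BY4741 yeast was measured by PAT-seq in 8 libraries, of which the 2 Log phase and 2 Day 4 libraries are compared. The authors deposited read counts per gene, counts of reads with a tail, and a mean tail length per gene in nucleotides, treated here as a score with no fixed range. Per the labels' protocols, total RNA from hot phenol extraction was sequenced as 75-base SOLiD reads. The sources used here do not name the aligner, the rule for calling a tail, the genome build or the strand setting. Coordinates of 5801 of 5813 shared entries equal those of R64. Gene symbols came from the deposited annotation for 5040 entries and from RefSeq for 242.

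Expression was tested in R 4.3.3 with edgeR 4.0.16 (TMM, filterByExpr, quasi-likelihood test, 1 mean per group over 8 libraries). Tail length and log2 odds of the tailed-read share were tested with limma 3.58.1, with weights from read numbers limited to 100 and 25, at least 10 tailed reads for length, and at least 20 reads and 5 tailed reads for share. Shares were tested only where the tables differed by at most 10% (4866 of 6532 entries). P-values were adjusted by Benjamini-Hochberg over all genes tested, with calls under 0.05. They measure the spread between libraries, which the labels do not state to be separate cultures. The functions were tested on simulated data.

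Merged entries and those whose totals differed more than 2-fold between tables (625) are marked uncertain. Named genes were the 12 strongest per direction above 50 CPM outside ribosome, respiration and stress genes, up to 4 per list and direction with the smallest p, members against a list's majority where there were at most 3, the 10 largest tail and share changes per direction, 10 genes called in all 3 measures, strain markers, and all members of the RNA 3′-end and decay lists. Any others were chosen after their values were seen, and some genes that the rule names are not reported here. The members and lists were chosen with earlier results of these data known. In expression, replicate numbers showed no pairing of libraries, as deviations from the group means correlated at −0.0924 to −0.0178 between groups. Such correlations were not computed for tail length or the tailed-read share. Alternatives covered scaling, filters, weights, centring, tailed reads, DESeq2 1.42.0, a replicate block and leaving out each library. The choice of poly(A) sites was not analysed here.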

Additional observations from a re-analysis of the deposited data

How the results depend on the processing

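The total, higher and lower counts of expression calls over all genes stayed within 1.5 times those reported under the alternatives run: 4401 genes were called as reported, and 3692 to 4622 otherwise, with 3965 to 4015 when 1 library was left out (1960 to 2011 higher, 1994 to 2013 lower). No pairing of libraries by replicate number is stated. The fit with a replicate block called 4363 genes in expression, 426 in tail length and 239 in tailed-read share. In expression, the calls of APE3, GZF3 and PUT3 were lost. Counts within gene groups moved more: with scaling to total counts, 24 of the 44 groups had a higher or lower count change by over 1.5 times. That scaling turned the sign of 23 named genes, 4 of them called in either fit: APE3 (0.12), CDC39 (0.0024), REF2 (0.44) and PUT3 (0.044). Counting tailed reads turned, among genes called in either fit, PTA1 (0.57), SCS22 (−0.57), PAT1 (0.28), BNA1 (−0.85), PAN3 (0.26), NAM7 (−0.12), RSN1 (0.90), NAB3 (−0.15) and CTF4 (−0.026). Of 314 named genes called in expression, 16 to 22 lost the call per left-out library. Tail length calls, 528 as reported, fell to 280 with each library centred on its median (174 longer and 106 shorter), and went from 0 to 134 with 1 library left out (0 to 10 longer, 0 to 128 shorter). In limma, 1016 to 1275 genes were then at an unadjusted p under 0.05, and 38 to 56 of the 56 named calls were lost. Share calls, 329 as reported, rose to 590 with edgeR on tailed and untailed counts (147 higher and 443 lower), were 153 higher and 152 lower with centring, and went from 8 to 75 with 1 library left out (1 to 6 higher, 7 to 70 lower), where 32 to 45 of 50 named calls were lost. Leaving out a library leaves 1 sample in its group, assumed to vary like the others. The cause of the other changes was not tested. With at least 50 reads per library, 3692 of 4908 genes were called in expression, and with at least 30 tailed reads 590 of 4581 in tail length.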

Other observations

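Entries outside the described groups also moved, and these sets were defined from the files' product text or position after values had been seen. Of 46 Ty1 and Ty2 retrotransposon entries tested, 42 were higher on Day 4 and the others did not pass the test (median log2 fold change 1.66, against 0.01 over all genes). They took 0.823% and 0.823% of counts in Log phase and 3.90% and 4.01% on Day 4. Their copies are near-identical, so single entries may share reads and cannot be taken as independent. Of the 45 with a tested tail length, 27 had shorter tails (median −3.26 nt, against −1.17 nt over all genes and 8.61% of genes shorter).

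Of 270 genes within 25 kb of a chromosome end, 168 were higher (62.2%, against 37.2% of all genes) and 34 lower (12.6%, against 37.0%). Their median was 1.47, and their summed share of counts went from 1.26% and 1.17% to 2.03% and 2.07%. The seripauperins, a near-identical family of such genes, had 9 of 16 higher (median 1.88) and took from 0.00245% to 0.0130% of counts per library. Of 838 tested genes of unknown function in the deposited annotation, 450 were higher (53.7%) and 167 lower (19.9%), with a median of 0.81. They took 4.00% and 3.98% of counts in Log phase and 11.5% and 11.6% on Day 4. Of 254 tested entries marked as dubious, 107 were higher and 28 lower (median 1.25). Where such an entry overlaps another gene, reads of the 2 cannot be told apart without a strand setting, which is not given in the sources used here.

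Small nucleolar RNAs and tRNAs have entries in the tail tables and none in the count table. Of 61 small nucleolar RNAs tested, 4 had longer and 5 shorter tails (median −0.920 nt), and of 54 tRNAs, 5 had longer and 2 shorter tails (median 0.618 nt). Over all 5388 entries tested, 1.19% were longer and 8.61% shorter. No cause of any of these values was tested.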
